A study of Homo sapiens with 44 samples.

Results

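Ccd-18Co is an established line of fibroblasts grown out of normal human colon tissue, and the comparison described here set 4 libraries of these cells stimulated with IL-1β against 4 libraries of unstimulated cells. The 8 libraries were chosen by their titles (IL1B and unstimulated, replicates 1 to 4) from 44 bulk RNA-seq libraries in 11 groups, which held unstimulated cells and cells given 1 of 10 cytokines. All groups spent 72 h without serum before stimulation, which lasted 24 h, with IL-1β at 0.1 ng/ml by the labels and methods and no cytokine in the unstimulated group. A figure legend of the study gives a lower IL-1β dose, so the dose is uncertain. TNF and IL-17A, each at 10 ng/ml, served as 2 further groups of 4 for direct comparison. Nothing in the labels or methods says that the replicates came from separate cultures, so p-values measure the spread between these libraries, which may be technical. Ccd-18Co is 1 established line without epithelium, immune cells or tissue architecture around it.

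IL-1β is a cytokine of activated myeloid cells. It binds the receptor IL1R1, which recruits MYD88, IRAK kinases and TRAF6, and these lead to the IKK complex and MAP kinases. IKK triggers breakdown of the inhibitor NFKBIA, so that NF-κB dimers enter the nucleus and switch on cytokines, prostaglandin enzymes and their own inhibitors. In the inflamed gut, fibroblasts that respond to IL-1β are known as a source of neutrophil-attracting and myeloid growth factors. CXC chemokines and the established markers of inflammatory fibroblasts are left aside below in favour of the other genes.

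Total counts were 1365019 to 1725354 in the unstimulated libraries and 1620541 to 2095807 in the IL-1β libraries. Values are given as CPM, counts scaled to the normalized library size, and 3 counts in a library corresponded on average to 1.95 CPM in unstimulated and 1.84 CPM in IL-1β libraries. CPM are not divided by transcript length, so they compare a gene between libraries and not genes with each other. Unstimulated replicate 1 stood apart in base composition: its genes of high GC content lay 0.31 (log2) above those of low GC content relative to the average library, against -0.46 to -0.42 in the other unstimulated libraries and -0.39 to -0.10 with IL-1β. Unstimulated replicate 4 was the highest unstimulated library for 61 of the 131 genes called higher with IL-1β that had a single highest library (46.6%), against 21.4% of all genes tested. The counts and the named genes were therefore also computed without each of these libraries, and values without them are given beside some of the genes and lists that moved. Fibroblast markers summed to 30100 to 42100 CPM in unstimulated and 25100 to 33300 CPM in IL-1β libraries, ranges that overlapped. EPCAM, KRT19, KRT20, CDX2 and MUC2 of the 9 epithelial markers, CDH5, CLDN5 and KDR of the 7 endothelial markers and CD3E, CD3D, MS4A1, CD79A, TYROBP and FCER1G of the 11 leukocyte markers were at 0 in all 8 libraries. Summed leukocyte markers were 0 to 7.83 CPM without and 3.24 to 17.9 CPM with IL-1β. Summed epithelial markers were 6.83 to 20.4 CPM without and 16.1 to 22.9 CPM with IL-1β, and VIL1 was counted in every library. Endothelial markers summed to 0 to 5.83 CPM without and 1.3 to 5.72 CPM with IL-1β. In bulk libraries, fewer cells that express a gene and less RNA of it per cell cannot be told apart.

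Of 9513 genes tested with edgeR's quasi-likelihood test, 329 (3.46%) rose and 373 (3.92%) fell at a Benjamini-Hochberg adjusted p under 0.05, the criterion for both words below. With the additional threshold of an absolute log2 fold change above 1.5, 140 genes (1.47%) were called higher and 124 (1.30%) called lower. The median log2 fold change over all genes tested was -0.01. In 615 genes (6.46%) every IL-1β library lay above every unstimulated library, and in 600 genes (6.31%) every one lay below. These shares are the background for the counts in the gene lists, 23 lists of pathways with 753 genes, of which 550 were abundant enough to be tested. The lists were drawn up with earlier results of these data known. Counts and medians of the lists are therefore descriptions and not independent tests of a pathway. Leaving out unstimulated replicate 1 gave 256 calls, leaving out replicate 4 gave 271, and leaving out both gave 217. With both left out, the calls of PTGFR, GRB14 and ELN, described below, were among those lost. CD44, IDI1 and LOXL2, which had missed the fold threshold, no longer had an adjusted p under 0.05. Below, a call is said to be lost where the adjusted p was no longer under 0.05, whatever the fold change.

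**Figure D1:**
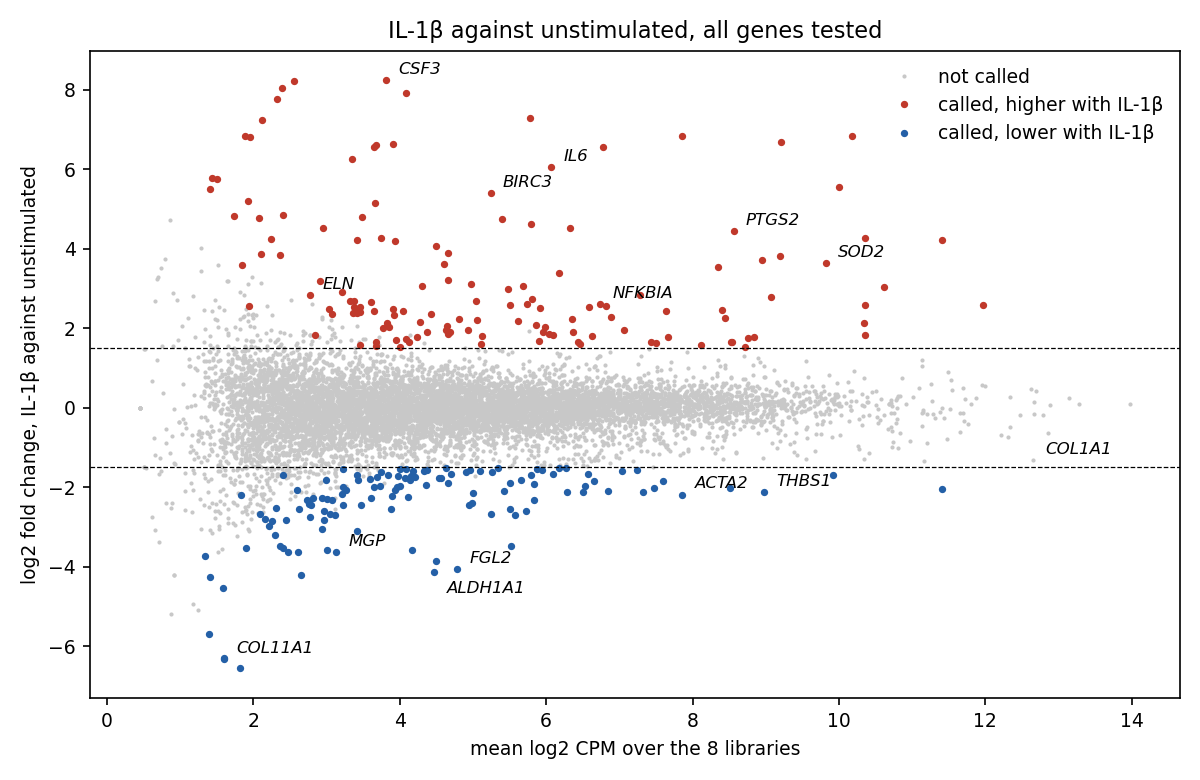
Log2 fold change of IL-1β against unstimulated cells (vertical axis) against mean log2 CPM over the 8 libraries (horizontal axis), with 1 point per gene tested and dashed lines at the fold threshold of 1.5. The 140 genes called higher are red and the 124 called lower are blue, and the points reach further above 0 than below it.

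**Figure D2:**
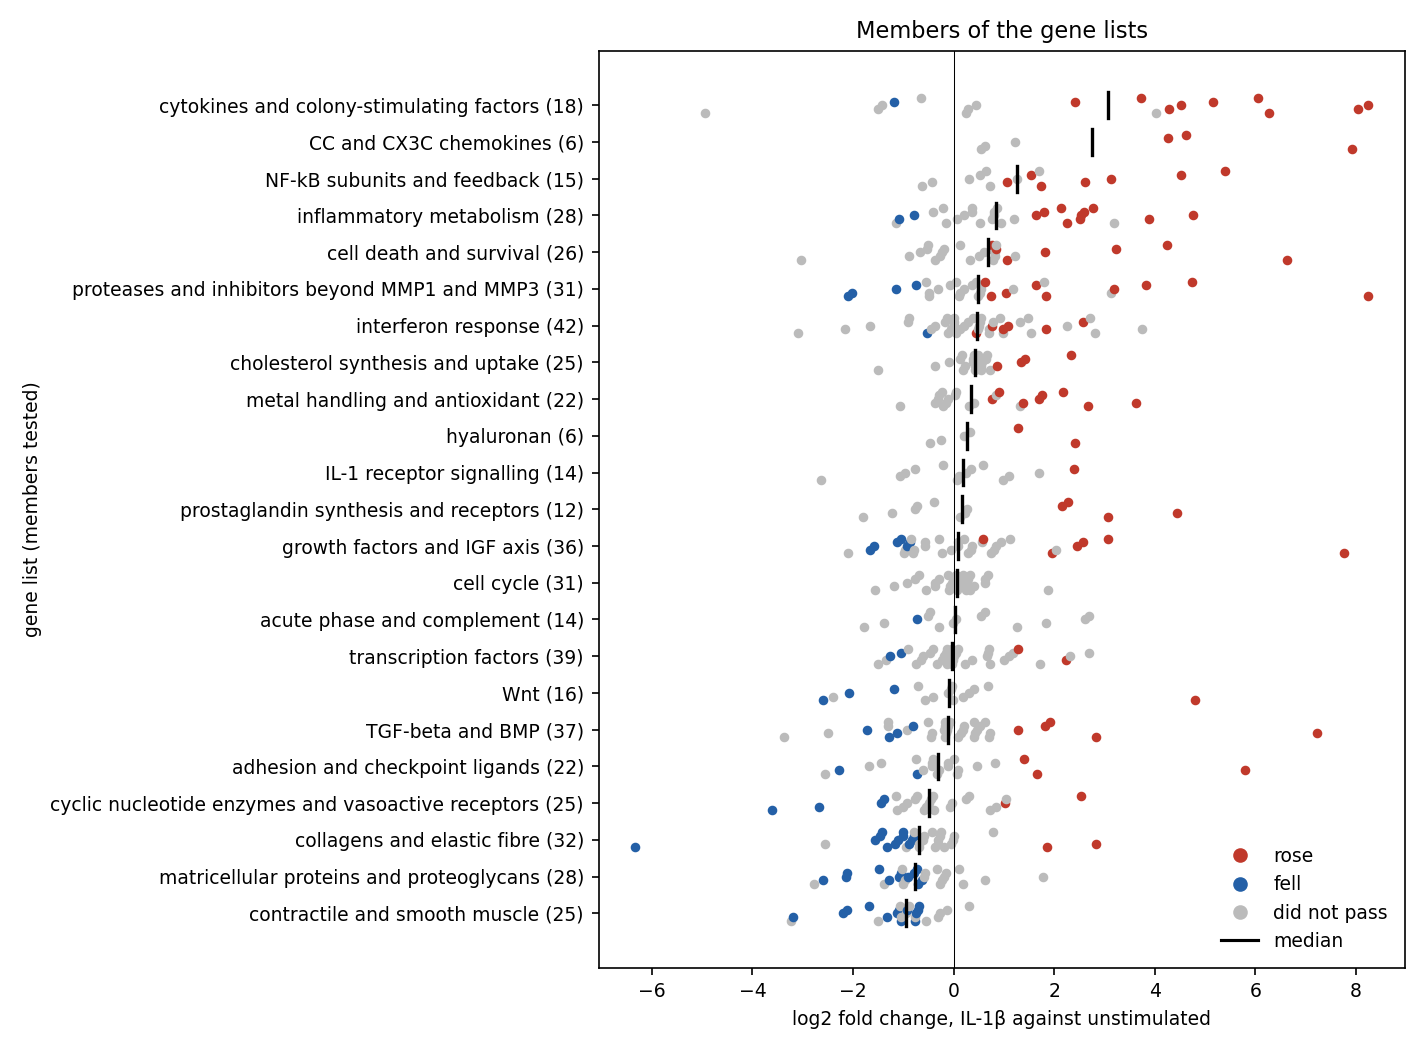
Log2 fold change of each tested member of 23 gene lists (horizontal axis), with lists ordered by their median (black bar) and the number of tested members in brackets. Cytokines and colony-stimulating factors, with a median of 3.07, stand at the top, and contractile genes, with a median of -0.95, at the bottom.

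Of 14 tested genes of IL-1 receptor signalling, 1 rose and 0 fell, and the median log2 fold change was 0.18. The gene that rose was MAP3K8, a kinase that carries the signal from IKK to the ERK pathway. IL1R1, the signalling receptor, measured 20.1, 17.5, 35.9 and 34.2 CPM in unstimulated replicates 1 to 4 and 35.8, 49.7, 72.4 and 53.8 CPM in IL-1β replicates 1 to 4, the order used for all values below. The groups overlapped by a small margin, and the difference of 0.98 (SE 0.33) on the log2 scale missed the threshold (adjusted p = 0.0672); it passed in 5 of 16 alternatives, which were DESeq2's Wald test, no filter on low counts, the replicate block, and the fits without IL-1β replicate 1 (1.13) or unstimulated replicate 3 (1.15). Of 15 tested NF-κB subunits and feedback genes, 7 rose, 0 fell and 8 did not pass, with a median of 1.27. The inhibitors NFKBIA and TNFAIP3 were among those that rose. The NF-κB subunit RELA was not tested because of low counts, at most 8 in an unstimulated and 16 in an IL-1β library.

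Promoter windows from RefSeq (build GRCh38.p14, 250 bases before to 50 after the start) were matched by symbol for 101 of the 132 genes considered for naming, and 7 of these held a κB motif, 6 that rose and 1 that fell. The letters searched were GGGA and TTCC with any 2 bases between them, on either strand, and 1.61% of all 35116 windows and 1.74% of those of genes tested hold them. The AP-1 motif TGANTCA was in 9 of the 101 windows, of 7 genes that rose and 2 that fell, against 7.71% of all windows and 4.64% of those of genes tested, and overlapped none of the κB motifs. Parts of 5 windows are shown, since these genes include the inhibitors, the kinase and the cytokine described next; the strand is that of the gene, and capitals mark the motif.
NFKBIA, chr14:35404790-35404859, minus strand: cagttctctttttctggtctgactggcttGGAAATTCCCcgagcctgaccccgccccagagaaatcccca
TNFAIP3, chr6:137867149-137867218, plus strand: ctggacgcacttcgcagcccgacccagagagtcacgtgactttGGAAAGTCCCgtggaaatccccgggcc
NFKBIZ, chr3:101827740-101827809, plus strand: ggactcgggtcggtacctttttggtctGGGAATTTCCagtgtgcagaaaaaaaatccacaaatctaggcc
IL6, chr7:22727090-22727159, plus strand: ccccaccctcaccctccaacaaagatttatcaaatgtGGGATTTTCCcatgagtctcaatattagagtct
MAP3K8, chr10:30433951-30434020, plus strand: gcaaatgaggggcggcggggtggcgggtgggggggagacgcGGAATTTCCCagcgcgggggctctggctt
The κB motif was also found before RIGI, which rose, and before CCN2, which fell. The start used for IL6 lies inside the gene interval printed below, so its stretch precedes an internal start. The start used for TNFAIP3 also lies inside its gene interval, which begins at 137867214, and the stretch shown runs into that interval. A match of letters is a description and not evidence of binding. Most of the 101 genes were picked because they rose or fell, and they include genes of NF-κB feedback. Neither the shares nor the split into rises and falls therefore tests whether a motif goes with a change.

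NFKBIA (chromosome 14, 35401079 to 35404749), the inhibitor that holds NF-κB in the cytoplasm, measured 21.5, 29.9, 71.1 and 56 CPM without and 255, 239, 288 and 298 CPM with IL-1β. All IL-1β libraries were far above all unstimulated ones, with a log2 fold change of 2.61 (SE 0.26, adjusted p = 5.41e-10). TNFAIP3, a ubiquitin-editing enzyme that shuts the pathway down, was at 0.49, 0, 4.22 and 0 CPM in unstimulated cells and at 18.7, 34.5, 35.6 and 23.3 CPM with IL-1β (log2 fold change 4.52, SE 0.84, adjusted p = 0.000162, and 6.62 without unstimulated replicate 3). NFKBIZ encodes an atypical nuclear inhibitor that also acts as a co-activator. It went from 5.88, 7.29, 14.1 and 13.7 CPM to 70.1, 92.1, 95.3 and 97.3 CPM, a log2 fold change of 3.12 (SE 0.37, adjusted p = 2.63e-08). BIRC3, a ubiquitin ligase of TNF receptor complexes, had the largest fold change of the list at 5.39 (SE 0.59, adjusted p = 3.43e-09). Its unstimulated values were 2.45, 1.46, 0.704 and 23.9 CPM and its IL-1β values 244, 238, 351 and 347 CPM. Unstimulated replicate 4 was thus well above its group, and without it the log2 fold change of BIRC3 was 7.42. MAP3K8 showed the same pattern, at 2.94, 1.46, 1.41 and 10.9 CPM against 26.7, 15.9, 21.6 and 24.6 CPM (log2 fold change 2.39, SE 0.62, adjusted p = 0.00824, and 3.42 without unstimulated replicate 4). BIRC2, NFKB1 and TNFAIP2 also rose, by 1.06, 1.73 and 1.54 (log2).

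**Figure D3:**
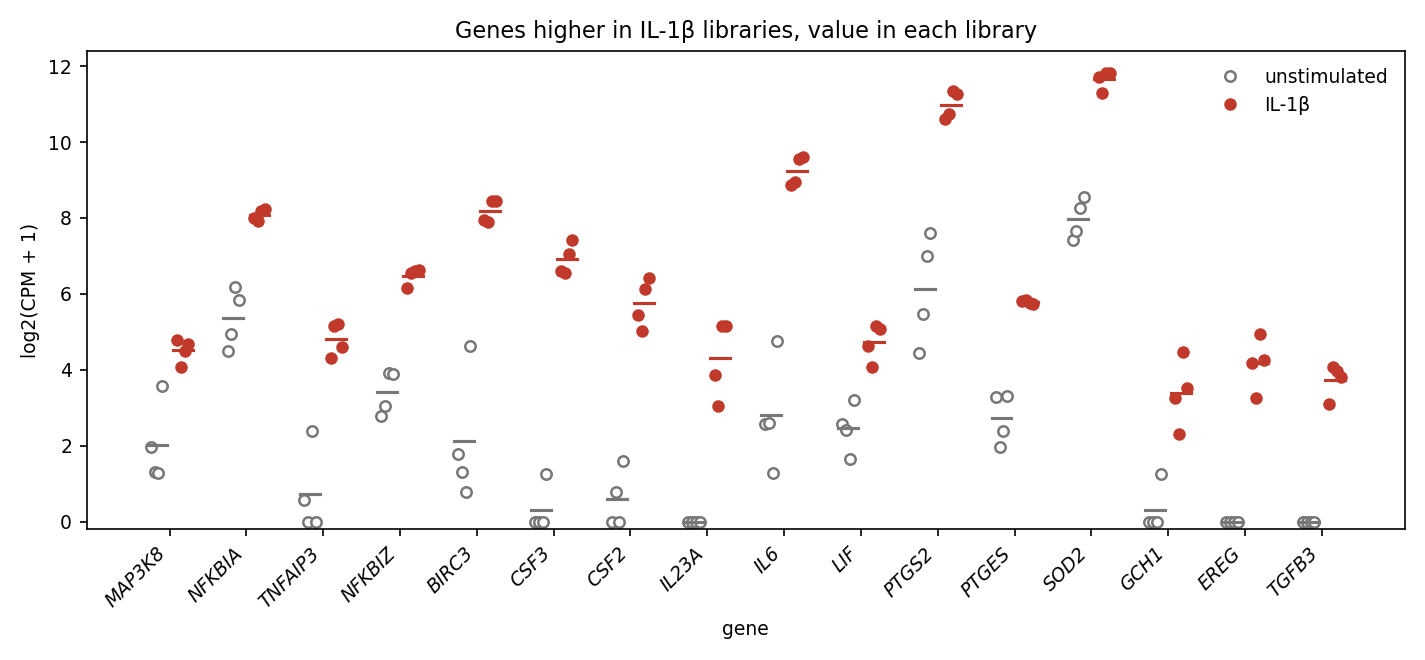
Levels of 16 genes as log2(CPM + 1) in each of the 4 unstimulated libraries (open grey) and the 4 IL-1β libraries (red), with bars at the group means. IL23A, EREG and TGFB3 were at 0 in all unstimulated libraries, and no gene shown has overlapping groups.

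Cytokines and colony-stimulating factors had the highest median of the lists. Of 18 tested, 9 rose, 1 fell and 8 did not pass; the median log2 fold change was 3.07, or 2.97 with genes at 0 in a group entered at their lower bound. For 6 members no library of at least 1 group held more than 3 counts, and the 8 untested members of the 26 are not part of the median. Members at 0 in unstimulated cells, such as IL23A, passed the filter on low counts through stimulated groups. This can raise the median of the list and its rank among the lists. SERPINB2, EREG, TGFB3, GRB14, ICAM1 and E2F3, described below, also had no count in unstimulated cells. They passed the filter in the same way.

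CSF3, which drives the production of neutrophils (chromosome 17, 40015361 to 40017813), was at 0, 0, 0 and 1.37 CPM without and 96.9, 93.5, 132 and 170 CPM with IL-1β. The unstimulated group held 2 counts of CSF3 in all against 802 with IL-1β, a ratio of 382 after scaling for depth (exact 95% interval of counting error 105 to 3160), and edgeR gave an adjusted p of 3.12e-08. CSF2, which acts on granulocytes and macrophages, was at 0, 0.729, 0 and 2.05 CPM against 42.4, 31.2, 68.6 and 84.3 CPM (log2 fold change 6.26, SE 1.01, adjusted p = 1.84e-05, and 7.58 without unstimulated replicate 4). Both colony-stimulating factors were thus close to the detection floor in unstimulated cells and measured in every IL-1β library.

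IL23A, the subunit specific to IL-23, had no count in unstimulated cells and 13.6, 7.29, 34.3 and 34.4 CPM with IL-1β. It was at least 11.5-fold higher against a floor of 3 counts per library (adjusted p = 5.3e-05). IL6, an activator of gp130 receptors (chromosome 7, 22725884 to 22732002), measured 4.9, 5.1, 1.41 and 26 CPM without and 463, 490, 753 and 778 CPM with IL-1β. Its log2 fold change was 6.06 (SE 0.55, adjusted p = 2.32e-11), and 7.29 without unstimulated replicate 4, which was again the highest of its group. IL24, IL32, IL33 and LIF rose by 5.16, 4.28, 3.72 and 2.42 (log2), and the IL1B transcript itself by 4.52. KITLG, the ligand of the mast cell receptor KIT, was the 1 member that fell. It went from 25.5, 59.8, 35.2 and 57.4 CPM to 16.1, 27.8, 8.89 and 25.3 CPM (log2 fold change -1.18, SE 0.37, adjusted p = 0.0377), and its groups overlapped. That call was lost without IL-1β replicate 1 or 3 or unstimulated replicate 2 or 4, with values of -1.09 to -0.94.

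Among CC chemokines, 3 of 6 tested rose and 0 fell. CCL20, which attracts cells that carry CCR6, was at 0, 0, 0 and 2.73 CPM without and 108, 101, 246 and 244 CPM with IL-1β (log2 fold change 7.91, SE 1.03, adjusted p = 7.02e-07). The single unstimulated library with counts was replicate 4, and without it the fitted value was 11.00. The monocyte attractant CCL2 was already present in unstimulated cells at 204, 248, 331 and 439 CPM and reached 5970, 6040, 5580 and 5910 CPM, a log2 fold change of 4.27 (SE 0.28, adjusted p = 9.89e-16). CCL7, its neighbour on chromosome 17, rose by 4.61 (SE 0.53, adjusted p = 1.18e-08), from 12.4 ± 11.8 CPM to 297 ± 61.4 CPM (SD, n = 4), and by 5.43 without unstimulated replicate 3.

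Transcripts for all 3 steps of the inducible route to prostaglandin E2 rose. PLA2G4A, the phospholipase that frees arachidonic acid, went from 58.3, 33.5, 52.8 and 71.7 CPM to 194, 213, 335 and 315 CPM (log2 fold change 2.28, SE 0.4, adjusted p = 5.99e-05). PTGS2, the inducible cyclooxygenase, went from 20.6, 43.7, 126 and 193 CPM to 1550, 1710, 2600 and 2440 CPM (log2 fold change 4.45, SE 0.65, adjusted p = 2.54e-06, and 5.05 without unstimulated replicate 4). Unstimulated values of PTGS2 spread widely, and each of them was below the lowest IL-1β value. PTGES, the microsomal synthase at the end of the route, went from 8.81, 2.92, 4.22 and 8.88 CPM to 55, 55.7, 52.7 and 51.9 CPM (log2 fold change 3.07, SE 0.54, adjusted p = 6.74e-05). The receptor PTGFR also rose, by 2.16 (2.77 without unstimulated replicate 3), so that 4 of 12 tested members rose and 0 fell, with a list median of 0.17. The constitutive cyclooxygenase PTGS1 differed by 0.26 (SE 0.97, adjusted p = 0.943). With unstimulated replicates 1 and 4 both left out the difference was 2.80, and PTGS1 passed in none of the alternatives. Its values swung within groups, at 74.4, 0, 12 and 53.3 CPM without and 83.8, 55.7, 15.9 and 13.6 CPM with IL-1β, and the groups overlapped.

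Genes of metal handling and of oxidant defence rose in 8 of 22 tested cases and fell in 0, with a median of 0.35; 5 rose when unstimulated replicates 1 and 4 were both left out. SOD2, the manganese superoxide dismutase of mitochondria, went from 171, 202, 308 and 375 CPM to 3350, 2510, 3600 and 3590 CPM (log2 fold change 3.63, SE 0.29, adjusted p = 1.84e-12). A pair of importers of divalent metals moved with it. SLC11A2, a carrier of ferrous iron, rose by 2.68 (SE 0.48, adjusted p = 8.64e-05), from 12.6 ± 5.33 CPM to 82.2 ± 7.78 CPM (SD, n = 4). SLC39A14, a zinc and iron importer, rose by 2.17 (SE 0.3, adjusted p = 9.23e-07), from 22.5 ± 4.86 CPM to 102 ± 9.16 CPM (SD, n = 4). The metal-binding protein MT2A rose by 1.75, the related MT1X and MT1E by 1.70 and 1.37, and reads of these near-identical genes can be split between them. The ferritin chain FTH1 and the transferrin receptor TFRC rose by 0.90 and 0.76.

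A further group of metabolic enzymes that cells use under inflammation rose in 10 of 28 tested cases and fell in 2, with a median of 0.84. HSD11B1, which regenerates active cortisol from cortisone, measured 5.39, 8.02, 2.11 and 8.88 CPM without and 102, 91.5, 93.4 and 78.5 CPM with IL-1β. The IL-1β values were close together and all far above the unstimulated ones (log2 fold change 3.89, SE 0.56, adjusted p = 1.41e-06). NAMPT, the enzyme that salvages nicotinamide for NAD, rose by 2.78 (SE 0.35, adjusted p = 1.29e-07), from 210 ± 77.6 CPM to 1450 ± 185 CPM (SD, n = 4). GCH1, the first enzyme of tetrahydrobiopterin synthesis, was near the floor in unstimulated cells, with 2 counts in all against 72 with IL-1β (ratio 34.3, exact 95% interval 9.16 to 289, edgeR adjusted p = 0.00647); both of the 2 counts were in unstimulated replicate 4. The metalloreductase STEAP1 rose by 2.60, the kynureninase KYNU by 1.80 and the polyamine acetyltransferase SAT1 by 2.14. NNMT, which methylates nicotinamide, and the cystine carrier SLC7A11 fell by 1.09 and 0.78 on the log2 scale, the latter a call lost without unstimulated replicate 2 (-0.67).

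Of 14 tested acute phase and complement genes, 0 rose and 1 fell, against 3.46% and 3.92% of all genes tested, and the list median was 0.02. The 1 that fell was the complement protease C1S (log2 fold change -0.73, SE 0.22, adjusted p = 0.0354), a call that was lost in 8 of 16 alternatives. Without unstimulated replicate 1, whose 743 CPM were the highest of its group, the value was -0.39, and without any other single library it lay between -0.87 and -0.70. In 3 members of this list every IL-1β library lay above every unstimulated one, and in 2 every one lay below. At an unadjusted p under 0.05 by the edgeR test, 4 members were higher. C3 and CFB (2.70 and 2.62, log2) did not pass the adjusted threshold, and neither did C2 and CFD (-1.79 and -1.39). SAA1 and LCN2 were at 0 in all 8 libraries. Of 42 tested interferon response genes, 6 rose and 1 fell, against 3.46% of all genes tested that rose, with a median of 0.46 (2 rose when unstimulated replicates 1 and 4 were both left out), and for 13 of them no library of at least 1 group held more than 3 counts. IFI6 rose by 2.58 (SE 0.6, adjusted p = 0.00274), from 14.7, 22.6, 26 and 19.8 CPM to 43.4, 68.9, 298 and 83.7 CPM. IL-1β replicate 3 stood far above its group there, and without it the difference was 1.66 with the call lost. HLA-B, HLA-C and B2M of antigen presentation rose by 0.99, 0.76 and 0.44, where the HLA genes share sequence and their reads can be split. Of 25 tested genes of cholesterol and lipid synthesis, 4 rose and 0 fell. They were the sterol enzyme HSD17B7 (2.33), the sterol sensor INSIG1 (1.42), the fatty acid desaturase FADS1 (1.34) and the isoprenoid enzyme IDI1 (0.86). Of 31 tested cell cycle genes, 0 rose and 0 fell by the edgeR test, and their median was 0.06; at an unadjusted p under 0.05, 0 were higher and 3 lower, and DESeq2's Wald test called 2 lower. In the other lists with 0 members in a direction, between 0 and 4 members passed an unadjusted p under 0.05 in that direction and 0 or 1 passed with DESeq2.

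The list of cell death and survival genes, which holds both promoters and inhibitors of cell death, had 7 of 26 tested members that rose and 0 that fell, with a median of 0.68. BCL2A1, an inhibitor of apoptosis of the BCL2 family, measured 0.49, 0, 0 and 4.1 CPM without and 63.6, 71.6, 153 and 190 CPM with IL-1β (log2 fold change 6.63, SE 0.87, adjusted p = 3.57e-07, and 8.69 without unstimulated replicate 4). The early response gene IER3 rose by 3.22 (SE 0.44, adjusted p = 6.28e-07) and RIPK2, the kinase of NOD receptors, by 1.81 (SE 0.27, adjusted p = 3.94e-06). CFLAR, an inhibitor of caspase 8, and CASP4, an inflammatory caspase, rose by 0.84 and 0.77. Of adhesion molecules and checkpoint ligands, 3 of 22 tested rose and 2 fell. ICAM1, a ligand of leukocyte integrins, had no count in unstimulated cells and 3.03, 5.97, 1.27 and 8.43 CPM with IL-1β, at least 2.39-fold higher (adjusted p = 0.0169), a call lost without unstimulated replicate 1 (5.77 on the fitted log2 scale) or IL-1β replicate 4 (5.33). The integrin chains ITGB8 and ITGA2 rose by 1.66 and 1.39 and ITGA4 and CD44 fell by 2.28 and 0.72 on the log2 scale, ITGA4 by 3.06 without IL-1β replicate 2. VCAM1, chosen after its values were seen, was at 53.4 ± 16.1 CPM without and 54 ± 16.8 CPM with IL-1β (SD, n = 4; adjusted p = 0.999).

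The contractile apparatus moved the other way. Of 25 tested contractile and smooth muscle genes, 13 fell and 0 rose, against 3.92% of all genes tested that fell, and the median was -0.95; 9 fell without unstimulated replicate 1. ACTA2, the smooth muscle actin of myofibroblasts (chromosome 10, 88935074 to 88991339), measured 853, 636, 254 and 354 CPM without and 147, 114, 121 and 79.1 CPM with IL-1β. All IL-1β libraries were below all unstimulated ones (log2 fold change -2.19, SE 0.39, adjusted p = 8.51e-05), and the difference was -1.84 without unstimulated replicate 1. Strand was not stated for the counting, and reads of ACTA2 cannot be told apart from those of the antisense ACTA2-AS1. TAGLN, an actin-binding protein of smooth muscle, went from 612, 327, 222 and 232 CPM to 94.4, 66.3, 69.9 and 88.9 CPM (log2 fold change -2.12, SE 0.33, adjusted p = 7.77e-06, and -1.70 without unstimulated replicate 1). MYLK, the kinase that phosphorylates myosin light chains, went from 2130, 2180, 1330 and 1470 CPM to 661, 617, 403 and 519 CPM (log2 fold change -1.69, SE 0.27, adjusted p = 8.54e-06). PLN, the regulator of the calcium pump, was low throughout and fell from 10.1 ± 0.687 CPM to 0.948 ± 1.21 CPM (SD, n = 4). The log2 fold change was -3.20, and -4.29 without IL-1β replicate 1. MYL9, ACTG2, ACTN1 and CALD1 fell by 1.33, 1.12, 1.09 and 1.05 on the log2 scale.

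Serum response factor acts on contractile genes through CArG boxes, and the windows of 3 of the 101 genes with a RefSeq promoter hold such a motif, against 1.29% of all windows and 1.12% of those of genes tested. These were MYLK and EGR1, which fell and are described here, and GBP1, which also fell, although its call was lost in 8 of 16 alternatives, 6 of them with 1 library left out (values of -0.62 to -0.43 over all 8 such fits). As above, most of the 101 genes were picked because they changed, so the share is not a test of the motif. The start that the table gives for MYLK lies inside the gene (chromosome 3, 123610049 to 123884332), so the stretch shown precedes an internal start; capitals mark the CArG motif, which the other motifs searched do not overlap.
MYLK, chr3:123620609-123620678, minus strand: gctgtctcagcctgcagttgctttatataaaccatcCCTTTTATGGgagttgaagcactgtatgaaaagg

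Collagens and elastic fibre genes fell in 12 of 32 tested cases and rose in 2, with a median of -0.69. COL1A1, the main chain of type I collagen, measured 5400, 13300, 13800 and 10000 CPM without and 5100, 5470, 3320 and 3140 CPM with IL-1β. The groups overlapped through unstimulated replicate 1; the log2 fold change was -1.32 (SE 0.36, adjusted p = 0.0135) with it and -1.54 without it. That call was lost without IL-1β replicate 3 or 4 or unstimulated replicate 2 or 3, with values of -1.22 to -1.16. COL3A1, COL6A3 and COL4A1 fell by 1.01, 1.01 and 0.88 on the log2 scale. COL11A1 was at 5.39, 10.2, 0.704 and 10.9 CPM without and at 0 in every library with IL-1β, at least 3.7-fold lower (adjusted p = 0.00354), although unstimulated replicate 3 was itself below the floor. Of genes that build or crosslink elastic fibres, EFEMP1, FBLN5, LOXL2 and LOX fell by 1.57, 1.43, 1.46 and 1.10 on the log2 scale. MFAP2 and FBLN1 fell by 1.16 and 0.83. FBN1, FBN2, FBLN2, EFEMP2, MFAP4, LOXL1 and LOXL3 did not pass, with log2 fold changes of -0.95 to 0.01. Elastin itself rose: ELN went from 1.96, 0.729, 3.52 and 1.37 CPM to 8.07, 13.3, 17.8 and 17.5 CPM (log2 fold change 2.84, SE 0.74, adjusted p = 0.00899), with the call lost when unstimulated replicates 1 and 4 were both left out. COL8A1, a short-chain collagen, rose from 34.2 ± 8.41 CPM to 124 ± 17.9 CPM (SD, n = 4; log2 fold change 1.86, SE 0.27, adjusted p = 2.43e-06).

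**Figure D4:**
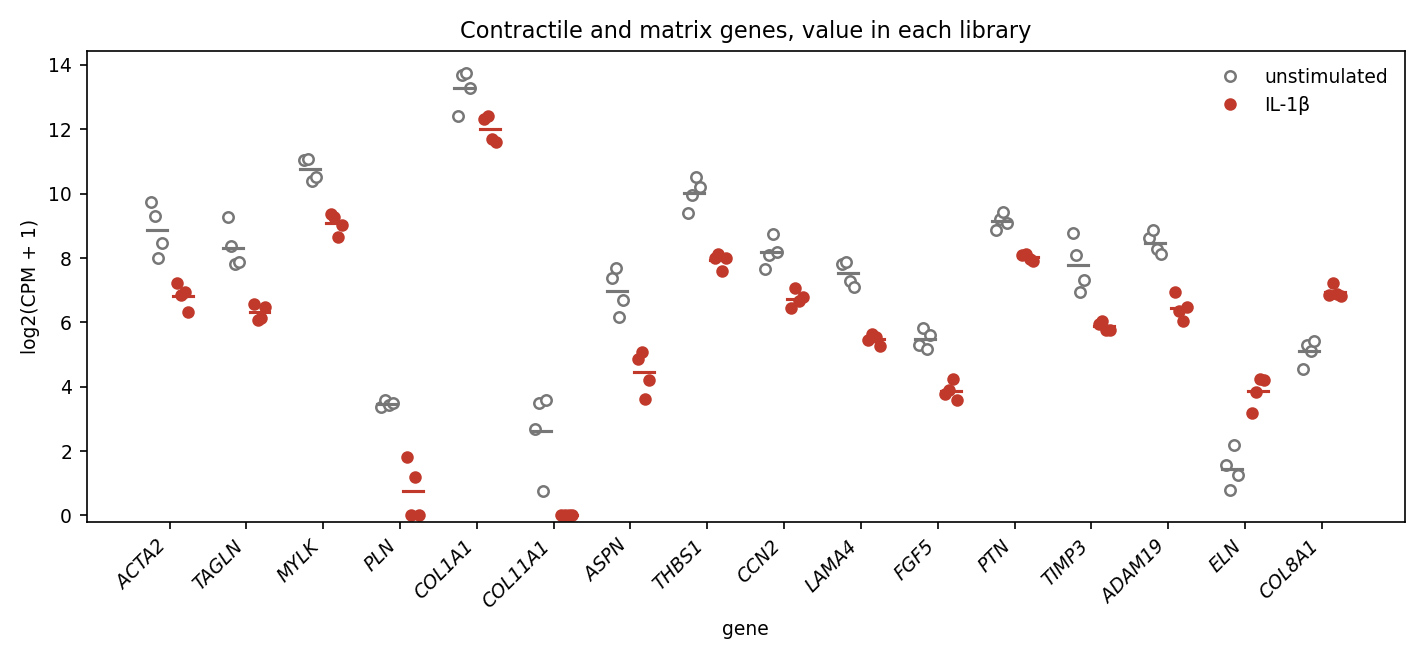
Levels of 16 contractile, matrix and growth factor genes as log2(CPM + 1) in each unstimulated (open grey) and IL-1β (red) library, with bars at the group means. Of the genes shown, ELN and COL8A1 were higher with IL-1β and the other 14 lower, and COL1A1 is the gene whose groups overlap.

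Matricellular proteins and proteoglycans fell in 12 of 28 tested cases and rose in 0, with a median of -0.76. THBS1, which binds matrix and can activate latent TGF-β, went from 668, 983, 1470 and 1170 CPM to 256, 278, 193 and 255 CPM (log2 fold change -2.13, SE 0.27, adjusted p = 1.96e-07). CCN2, a target of TGF-β and YAP, went from 203, 273, 424 and 290 CPM to 85.3, 132, 101 and 109 CPM (log2 fold change -1.48, SE 0.22, adjusted p = 2.43e-06). The laminin chain LAMA4 fell by 2.11 (SE 0.24, adjusted p = 1.05e-08) and the small proteoglycan ASPN by 2.59 (SE 0.47, adjusted p = 0.000121) on the log2 scale. Fibronectin (FN1), SPARC and syndecan 2 (SDC2) fell by 1.09, 0.90 and 1.29. MGP, the matrix Gla protein that inhibits calcification, was among the 12 largest falls of the whole table and went from 15.2, 15.3, 33.8 and 37.6 CPM to 1.51, 1.33, 4.45 and 0.649 CPM (log2 fold change -3.63, SE 0.48, adjusted p = 3.24e-07, and -4.32 without IL-1β replicate 3).

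Proteases and their inhibitors moved both ways, with 9 of 31 tested members higher and 4 lower (median 0.49). SERPINB2, an inhibitor of urokinase, had no count in unstimulated cells and 20.2, 45.1, 15.2 and 22.1 CPM with IL-1β, at least 13.1-fold higher (adjusted p = 0.000148). MMP12, the macrophage elastase, went from 5.88, 16, 2.81 and 7.51 CPM to 210, 190, 256 and 202 CPM (log2 fold change 4.74, SE 0.54, adjusted p = 9.15e-09). MMP10, stromelysin 2, went from 131, 94, 175 and 260 CPM to 1710, 1470, 3000 and 3170 CPM (log2 fold change 3.82, SE 0.38, adjusted p = 3.95e-10). Both genes lie in the metalloproteinase cluster of chromosome 11. The lysosomal protease CTSS rose by 3.19 (SE 0.75, adjusted p = 0.00319). TIMP3, an inhibitor of metalloproteinases held in the matrix, went from 436, 271, 122 and 160 CPM to 61.1, 64.3, 53.4 and 53.8 CPM (log2 fold change -2.09, SE 0.34, adjusted p = 1.52e-05, and -1.66 without unstimulated replicate 1), while TIMP1 rose by 0.75. The sheddase ADAM19 fell by 2.01 on the log2 scale (SE 0.18, adjusted p = 1.79e-11). Of 6 tested genes of hyaluronan turnover, TNFAIP6, which transfers heavy chains onto hyaluronan, and CEMIP, which takes part in the breakdown of hyaluronan, rose by 2.42 and 1.29.

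In the TGF-β and BMP family, 5 of 37 tested genes rose and 4 fell (median -0.12). TGFB3 had no count in unstimulated cells and 7.57, 15.9, 14.6 and 13 CPM with IL-1β, at least 6.53-fold higher (adjusted p = 0.000384). INHBA, the subunit of activin A, went from 44.6, 62.7, 59.1 and 66.3 CPM to 346, 307, 489 and 524 CPM (log2 fold change 2.84, SE 0.27, adjusted p = 1.17e-10), and FST, which binds activin, rose by 1.28. BMP2 and the inhibitory helix-loop-helix factor ID2 rose by 1.82 (SE 0.34, adjusted p = 0.000187) and 1.91 (SE 0.24, adjusted p = 6.52e-08). The 4 that fell were TGFBI, a matrix protein named for its induction by TGF-β, at 1270, 1220, 1100 and 1080 CPM without and 501, 520, 467 and 440 CPM with IL-1β (log2 fold change -1.28, SE 0.14, adjusted p = 1.68e-09), the latency proteins LTBP2 and LTBP1 (-1.72 and -0.81) and the ubiquitin ligase SMURF2 (-1.13).

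Of 16 tested Wnt genes, 1 rose and 3 fell. RSPO3, which potentiates Wnt signals to epithelial stem cells, went from 0.979, 0, 0 and 6.15 CPM to 59, 58.3, 44.5 and 43.5 CPM (log2 fold change 4.80, SE 0.74, adjusted p = 6.81e-06, and 6.72 without unstimulated replicate 4). WNT5B, the receptor FZD4 and WNT2B fell by 2.59, 2.07 and 1.18 on the log2 scale. The value of WNT5B was -3.97 without IL-1β replicate 1. The call of WNT2B was lost in 6 of 16 alternatives, among them those without unstimulated replicate 1 or 2 or IL-1β replicate 3 or 4, with values of -1.15 to -0.96.

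Growth factors split evenly, with 6 of 36 tested members higher and 6 lower (median 0.09). EREG and AREG, ligands of the EGF receptor that lie next to each other on chromosome 4, both rose. EREG had no count in unstimulated cells and 17.2, 8.62, 29.9 and 18.2 CPM with IL-1β, at least 9.44-fold higher (adjusted p = 0.00027). AREG went from 4.41, 5.83, 39.4 and 35.5 CPM to 120, 110, 210 and 263 CPM (log2 fold change 3.07, SE 0.68, adjusted p = 0.00168). FGF2 rose by 2.45 (SE 0.3, adjusted p = 7.49e-08). Its relatives moved the other way, with log2 fold changes of -1.67 for FGF5 (SE 0.35, adjusted p = 0.000744) and -1.58 for FGF1 (SE 0.34, adjusted p = 0.000937). The secreted glycoprotein STC1 went from 337, 557, 4260 and 3360 CPM to 9610, 11100, 15500 and 14800 CPM (log2 fold change 2.58, SE 0.68, adjusted p = 0.00946). Its unstimulated libraries fell into 2 low and 2 high values, all below the IL-1β ones, and the call was lost without unstimulated replicate 2 (2.27), while the value without replicate 3 was 3.19. The heparin-binding PTN, IGFBP3, IGF1 and IGFBP5 fell by 1.13, 1.05, 0.92 and 0.86.

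Receptors and enzymes of vasoactive and cyclic nucleotide signalling gave 2 rises and 4 falls among 25 tested genes (median -0.48). The oxytocin receptor OXTR went from 8.32, 32.1, 19 and 18.4 CPM to 5.55, 3.98, 0 and 1.95 CPM (log2 fold change -2.67, SE 0.53, adjusted p = 0.000411). Phosphodiesterases moved in both directions, with log2 fold changes of 2.54 for PDE10A, -3.62 for PDE1A and -1.45 for PDE5A; PDE1A was at -5.84 without IL-1β replicate 4, and PDE10A lost its call without unstimulated replicate 2 (2.28). The thrombin receptor F2R fell by 1.38, and the bradykinin receptor BDKRB2 rose by 1.02. Of 39 tested transcription factors, 2 rose and 2 fell, counts near the 3.46% and 3.92% of all genes tested. Without unstimulated replicate 1, 0 rose. NR4A2 and GLIS3 rose by 2.24 and 1.29, and EGR1 and NR2F2 fell by 1.26 and 1.05. Calls were lost for NR4A2 without unstimulated replicate 1 (1.83) or 2 (2.00), for GLIS3 without unstimulated replicate 1 (1.01) and for NR2F2 without IL-1β replicate 1, 2 or 4 or unstimulated replicate 2 (-1.03 to -0.84).

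Largest changes outside the lists were also recorded. C15orf48, a subunit linked to respiratory complex IV, went from 0, 0, 0 and 3.42 CPM to 74.7, 75.6, 112 and 87.6 CPM (log2 fold change 6.61, SE 0.84, adjusted p = 2.79e-07), and the serpin SERPINB7 from 0, 0, 0 and 3.42 CPM to 70.6, 80.9, 73.7 and 112 CPM (log2 fold change 6.55, SE 1.17, adjusted p = 0.000178). In both, the only unstimulated library with counts was replicate 4, without which the fitted values were 10.00 and 9.95. SERPINB7 missed the threshold in DESeq2's Wald test (adjusted p = 0.0539). GRB14, an adaptor of receptor tyrosine kinases, had no count in unstimulated cells and was at least 4.94-fold higher with IL-1β. E2F3 likewise had no count without IL-1β and 11.6, 9.28, 7.62 and 9.73 CPM with it, but its call (adjusted p = 0.0429) was lost in 10 of 16 alternatives, among them each of those with 1 library left out. Its mean was also 0 CPM with TNF and with IL-17A. FGL2, a secreted fibrinogen-like protein, went from 114, 142, 85.1 and 87.4 CPM to 9.08, 3.31, 7.62 and 4.54 CPM (log2 fold change -4.07, SE 0.34, adjusted p = 4.04e-12). ALDH1A1, which makes retinoic acid, went from 89.6, 178, 55.6 and 39.6 CPM to 6.56, 3.31, 4.45 and 5.84 CPM (log2 fold change -4.13, SE 0.51, adjusted p = 6.78e-08). CMKLR2, a receptor of chemerin, fell from 18.6 ± 5.17 CPM to 0.96 ± 1.51 CPM (SD, n = 4). The log2 fold change was -4.21, and -6.02 without IL-1β replicate 3. GPAT3 and CABCOCO1 were at 0 in every IL-1β library, at least 4.35-fold and 3.63-fold lower. ZFHX4-AS1, whose reads cannot be told apart from those of ZFHX4 without strand, was at least 2.39-fold lower. KBTBD8 and SOBP each had 1 count in all with IL-1β against 32 and 20 without, and their calls were lost in 4 and 7 of the alternatives, KBTBD8 without IL-1β replicate 1, 2 or 4 or unstimulated replicate 3, and SOBP among others without IL-1β replicate 1, 2 or 3 or unstimulated replicate 1 or 3. DDAH1 was at 134, 171, 210 and 113 CPM without IL-1β and at 0, 45.1, 0 and 0 CPM with it (log2 fold change -3.86, SE 0.77, adjusted p = 0.000433). Its value was -10.83 without IL-1β replicate 2, so that this library set the size of the fall. The call held in all 16 alternatives.

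TNF and IL-17A also act through NF-κB, and the same model compared them with IL-1β directly, at doses that differed and, for IL-1β, are uncertain as said above. IL-1β libraries were higher than TNF libraries for 66 genes (0.694%) and lower for 43 (0.452%) at an adjusted p under 0.05; against IL-17A they were higher for 177 (1.86%) and lower for 146 (1.53%). Those counts share the IL-1β libraries with the comparison above. TNF libraries also differed in base composition, with a GC difference of -0.08 to 0.44 against -0.39 to -0.1 with IL-1β. Against TNF, 35 genes were called, and 30 after GC correction, for which values of single genes are not given. CSF3 measured 123 ± 35.7 CPM with IL-1β and lay 4.05 (log2, SE 0.66, adjusted p = 0.00032) above its level with TNF. IL6 and NFKBIZ were also higher than with TNF, by 1.75 (SE 0.42, adjusted p = 0.0223) and 1.96 (SE 0.34, adjusted p = 0.000609), as were SERPINB7 (5.05, adjusted p = 0.00683) and ID2 (0.98, adjusted p = 0.0145). Lower with IL-1β than with TNF were TAGLN (-1.25, SE 0.33, adjusted p = 0.0409), THBS1 (-1.23, SE 0.27, adjusted p = 0.00836), CCN2 (-1.01, SE 0.22, adjusted p = 0.00683), ADAM19 (-0.73, SE 0.18, adjusted p = 0.0227) and DDAH1 (-3.31, SE 0.77, adjusted p = 0.0157). BIRC3 was at 295 ± 62.3 CPM with IL-1β, and its difference from TNF of -1.54 (SE 0.44) missed the threshold (adjusted p = 0.0743). Against IL-17A, IL-1β libraries were higher for BIRC3 (5.87, adjusted p = 3.19e-09), CSF3 (5.46, adjusted p = 2.63e-06) and IL6 (4.47, adjusted p = 9.71e-09). NFKBIZ did not pass in that comparison, at 0.31 (adjusted p = 0.777).

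**Figure D5:**
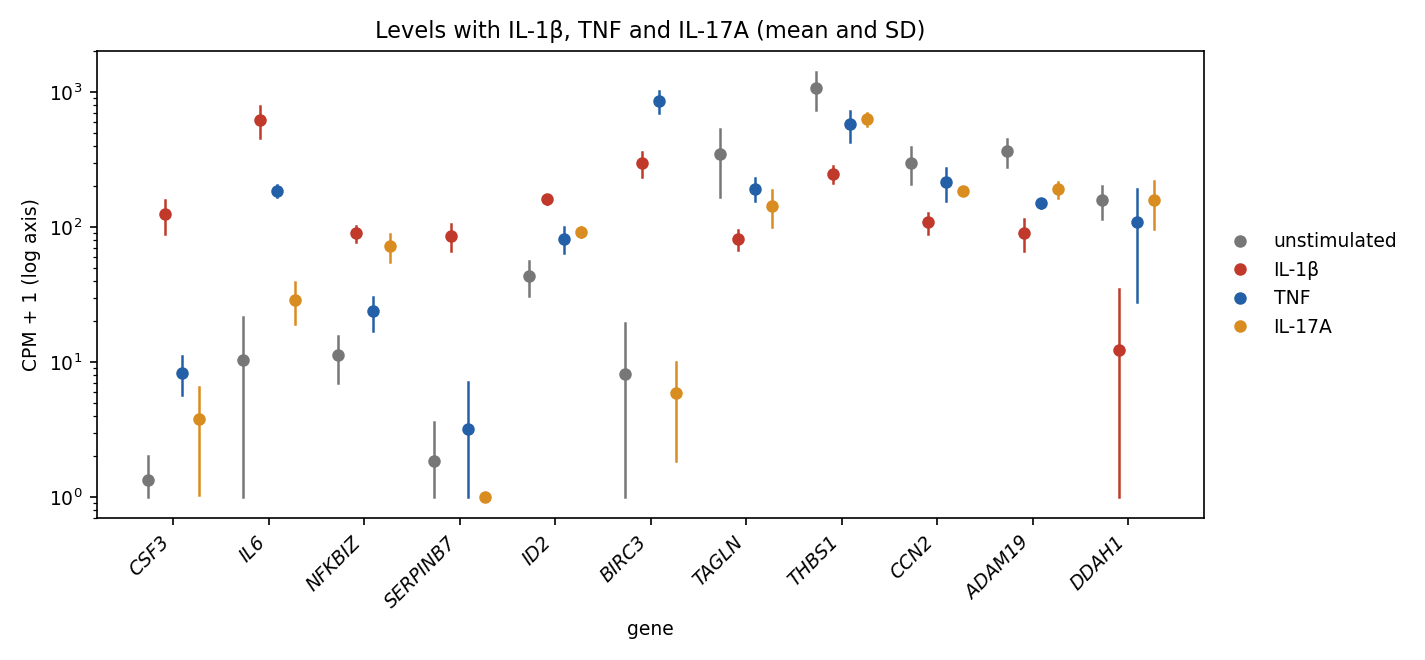
Mean CPM + 1 on a log axis with SD bars (n = 4 per group) for 11 genes in unstimulated, IL-1β, TNF and IL-17A libraries, with bars cut at a CPM of 0. CSF3, IL6, NFKBIZ, SERPINB7 and ID2 were highest with IL-1β, BIRC3 with TNF, and TAGLN, THBS1, CCN2, ADAM19 and DDAH1 were lowest with IL-1β.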

How the data were processed

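Bulk RNA-seq of the Ccd-18Co line covered 11 groups of 4 libraries, grouped by sample title. Per the submitters' notes, reads were checked with FastQC 0.11.9 and MultiQC 1.14 and quantified with kallisto 0.48.0, with hg38 as the build. The authors deposited estimated counts for 40663 gene symbols without scaling for depth, and 5.77% of values were not whole. The transcriptome release and strand setting are not given in the sources used here, and estimated counts depend on how reads shared by similar transcripts were split.

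Counts were rounded to integers. Genes were kept by edgeR's filterByExpr (9513 genes), library sizes were normalized by TMM (edgeR's trimmed mean method), and all 44 libraries were fitted in 1 quasi-likelihood model (edgeR 4.0.16, R 4.3.3) with 1 coefficient per group. IL-1β was compared with unstimulated cells, TNF and IL-17A, with Benjamini-Hochberg adjustment over all genes. Called genes also needed an absolute log2 fold change above 1.5. Log2 CPM used a prior count of 2, and SE is the log2 fold change over the square root of F. Coordinates are from GENCODE on GRCh38. Intervals and floors cover counting error only.

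The genes, lists and contrasts were chosen with earlier results of these data known. Named were the 12 largest rises and falls among called genes without overlap and with mean log2 CPM of at least 1, up to 4 members per list in each direction, and IL1R1, RELA, PTGS1, ACTA2 and COL1A1. Further list members are given by value only, and 1 member that meets the rule is not reported here. VCAM1, C15orf48 and the genes of the first paragraph under other observations were chosen after their values were seen, although C15orf48 also meets the rule. The lowest chi-square between replicates was 3.26 per degree of freedom, above sampling noise, with 0 identical pairs. The code was tested on simulated data. Alternatives were other size factors, DESeq2 1.42.0, other filters and thresholds, only the groups compared, a replicate block, each replicate left out and, added after seeing the data, a GC correction and both unstimulated libraries that stood apart left out.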

Additional observations from a re-analysis of the deposited data

Results flagged for a closer look

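In groups of 4 libraries, a value was marked where its gap to the nearest other library exceeded Dixon's 95% critical share of the group's range, which chance gives in about 1 in 20 groups. That rate holds for continuous values and not where 3 libraries are at 0 and the fourth has a few counts, which always gives a gap of 1. Of 257 groups tested, 28 were marked, and 12 of them were unstimulated replicate 4.

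That library was the high one for CSF3 (1.37 CPM against 0 in the others, gap 1), CCL20 (2.73 CPM against 0, gap 1), C15orf48 and SERPINB7 (3.42 CPM against 0 in both, gap 1), GCH1 (1.37 CPM against 0, gap 1), BCL2A1 (4.1 CPM against 0 to 0.49, gap 0.88), BIRC3 (23.9 CPM against 0.704 to 2.45, gap 0.925), IL6 (26 CPM against 1.41 to 5.1, gap 0.85), MAP3K8 (10.9 CPM against 1.41 to 2.94, gap 0.839) and RSPO3 (6.15 CPM against 0 to 0.979, gap 0.841). It was the low one for CABCOCO1 (0.683 CPM against 8.02 to 9.15, gap 0.867) and CMKLR2 (10.9 CPM against 20.4 to 22, gap 0.856).

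Unstimulated replicate 1 was high for RIGI (30.8 CPM against 20.4 to 21.8, gap 0.865), G0S2 (1.96 CPM against 0, gap 1), ADH1B (27.4 CPM against 10.9 to 13.7, gap 0.83) and the difference between genes of high and low GC content (0.31 against -0.46 to -0.42, gap 0.948). Unstimulated replicate 3 was high for TNFAIP3 (4.22 CPM against 0 to 0.49, gap 0.884).

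Among IL-1β libraries, replicate 1 was low for PTGFR (24.7 CPM against 45.7 to 47.1, gap 0.938) and high in total counts (gap 0.916). Replicate 2 was high for DDAH1 (45.1 CPM against 0, gap 1) and COL8A1 (150 CPM against 112 to 118, gap 0.842), and low in the GC difference (-0.39 against -0.13 to -0.10, gap 0.897). Replicate 3 was high for IFI6 (298 CPM against 43.4 to 83.7, gap 0.842), RIGI (71.2 CPM against 42.8 to 46.4, gap 0.873) and KBTBD8 (0.635 CPM against 0, gap 1) and low for SLC11A2 (70.5 CPM against 85.8 to 86.3, gap 0.968). Replicate 4 was high for SOBP (0.649 CPM against 0, gap 1) and PDE1A (4.54 CPM against 0 to 0.635, gap 0.86). The causes of these gaps were not tested.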

How the results depend on the processing

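Of 132 genes considered for naming, 99 kept their direction and their side of the threshold in all of up to 16 alternatives. IL-1β against unstimulated cells gave 264 calls, and 448 at an absolute log2 fold change above 1, 702 without a fold threshold, 308 with DESeq2's Wald test (261 shared with the 264), 264 after GC correction, 217 without unstimulated replicates 1 and 4, and 225 to 275 with 1 replicate left out. IL-1β against TNF gave 35 calls, 65 above 1, 109 without a fold threshold, 78 without a filter on low counts, 39 with DESeq2 and 30 after GC correction. With 1 replicate left out it gave 22 to 34. The lowest were 22 without TNF replicate 3 and 23 without IL-1β replicate 2, and the cause was not tested. IL-1β against IL-17A gave 121 calls, 207 above 1, 323 without a fold threshold, 147 with DESeq2 and 102 to 124 with 1 replicate left out. Same-numbered replicates did not deviate together over the genes tested (correlations of -0.01 to 0.08 between IL-1β and unstimulated libraries). This gave no sign of pairing by number, but such correlations cannot exclude a pairing that touches few genes. With the replicate number as a block, the count against unstimulated cells was 275, of which 258 were among the 264. IL1R1 passed the threshold in that fit. PTGS1 reversed to -0.32 without IL-1β replicate 1, -0.14 without unstimulated replicate 2 and -0.02 without unstimulated replicate 3, and VCAM1 to -0.01 in the fit of only the groups compared and to between -0.17 and -0.08 without single replicates (-0.17, -0.09, -0.13 and -0.08); with 1 replicate left out, PTGS1 ranged from -0.32 to 0.96 and VCAM1 from -0.17 to 0.20, and neither gene passed in any of these. At 1365019 to 2095807 counts per library, genes near 3 counts cannot show moderate differences.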

Other observations

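Enzymes that make serine, carry its one-carbon units and make asparagine were lower with IL-1β in several cases, a group noticed after its values were seen. PSAT1, the transaminase of serine synthesis, measured 206, 195, 86.5 and 113 CPM without and 12.1, 11.9, 15.9 and 14.3 CPM with IL-1β (log2 fold change -3.47, SE 0.35, adjusted p = 3.43e-10). ASNS, asparagine synthetase, went from 126, 154, 102 and 122 CPM to 20.2, 23.2, 21.6 and 35.7 CPM (log2 fold change -2.33, SE 0.3, adjusted p = 2.29e-07), and MTHFD2 of the mitochondrial folate pathway from 179, 247, 106 and 150 CPM to 43.9, 51.7, 54.6 and 66.2 CPM (log2 fold change -1.66, SE 0.22, adjusted p = 2.89e-07). PHGDH and SHMT2 fell by 2.42 and 1.99 on the log2 scale, and both calls were lost without unstimulated replicate 1 (-1.61 and -1.56), which had their highest values, and without IL-1β replicate 2 or 4 (-2.19 to -1.79). PSPH (-0.56, adjusted p = 0.074, with the threshold passed without unstimulated replicate 4 at -0.68) and ATF4 (-0.20, adjusted p = 0.754), the factor known to drive these genes under amino acid stress, did not pass. Only RNA was measured, and activity of the ATF4 protein was not tested. INMT, an N-methyltransferase, went from 42.6, 56.1, 65.4 and 73.8 CPM to 8.07, 2.65, 1.27 and 7.13 CPM (log2 fold change -3.57, SE 0.33, adjusted p = 3.07e-11). It was lower with IL-1β than with TNF by 2.55 on the log2 scale (SE 0.34, adjusted p = 3.69e-06). Beside ALDH1A1, the alcohol dehydrogenase ADH1B fell by 2.76 on the log2 scale, a call lost without unstimulated replicate 1 (-2.37) or IL-1β replicate 3 or 4 and at -3.55 without IL-1β replicate 1, while RDH10 (-0.69, adjusted p = 0.246) and ALDH1A3 (-0.96, adjusted p = 0.571) of the same retinoid route did not pass. C3 (2.70, adjusted p = 0.125), CEBPB (1.11, adjusted p = 0.235) and IRF1 (0.48, adjusted p = 0.757) did not pass either.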
